A study of Mus musculus with 6 samples.

Results

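The 4 Janus kinases Jak1, Jak2, Jak3 and Tyk2 and the 5 signal transducers and activators of transcription Stat3, Stat4, Stat5a, Stat5b and Stat6 were followed in double negative T (DNT) cells cultured with or without IL-33. These 9 genes were taken by name from the 26128 genes of the count table, where each symbol matched 1 Ensembl identifier, and all 9 were among the 14671 genes kept for testing. The cells came from adult C57BL/6 mice, with spleen as the labelled tissue, whereas the study's methods name lymph nodes as well as spleen. CD4+CD25- T cells had been converted in culture with IL-2 and mature dendritic cells of DBA/2 mice, and the converted cells were sorted as CD3+NK1.1-CD4-CD8-. Both groups then received anti-CD3/CD28 beads for 48 h, the Control group (3 libraries) without IL-33 and the IL-33 group (3 libraries) with IL-33 at 50 ng/ml. Neither the labels nor the study's methods tell whether the libraries of a group came from separate mice or cultures, so the p-values measure only the spread between these libraries, which may be technical.

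Cytokine receptors of the JAK-STAT pathway have no kinase activity of their own. Janus kinases bound to their tails phosphorylate the receptor and then the STAT factors that dock there, and the phosphorylated STAT dimers move to the nucleus and bind DNA. T cells use the pathway to read IL-2, IL-7, IL-4, IL-6, IL-12 and the interferons. The IL-33 receptor belongs to the IL-1 receptor family and signals through MyD88 instead of a receptor-bound Janus kinase. Phosphorylation is not measured by RNA sequencing, so the values below are transcript levels only.

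With IL-33, Stat5b, Stat3, Stat5a and Jak1 rose, and none of the 9 genes fell past the threshold. The rises were small, from 11.9% for Jak1 to 33.0% for Stat5b. A gene was called when the adjusted p of edgeR's quasi-likelihood test (Benjamini-Hochberg over all genes tested) was under 0.05. By this rule 4 of the 9 genes were called higher, beside 13.6% of all genes tested, and 0 were called lower, beside 13.9%. Genes with many reads are called more often, and all 9 genes had many. Of the 3036 genes with a mean of at least 75 CPM (counts scaled to library size), 26.7% were called higher and 22.7% lower. At an unadjusted p under 0.05, 5 of the 9 genes were higher and 0 lower, with the same counts in DESeq2 and limma-voom. The share of all genes past this unadjusted threshold was not computed, so these counts cannot be set against it. Of the members, 0 passed both the adjusted p and a fold change of 1.5 in either direction, which 4.87% of all genes did, 2.47% higher and 2.39% lower. That count was also 0 at an unadjusted p under 0.05, in DESeq2 and in limma-voom. In bulk RNA, a change in the share of cells expressing a gene and a change in RNA per cell cannot be told apart.

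**Figure D1:**
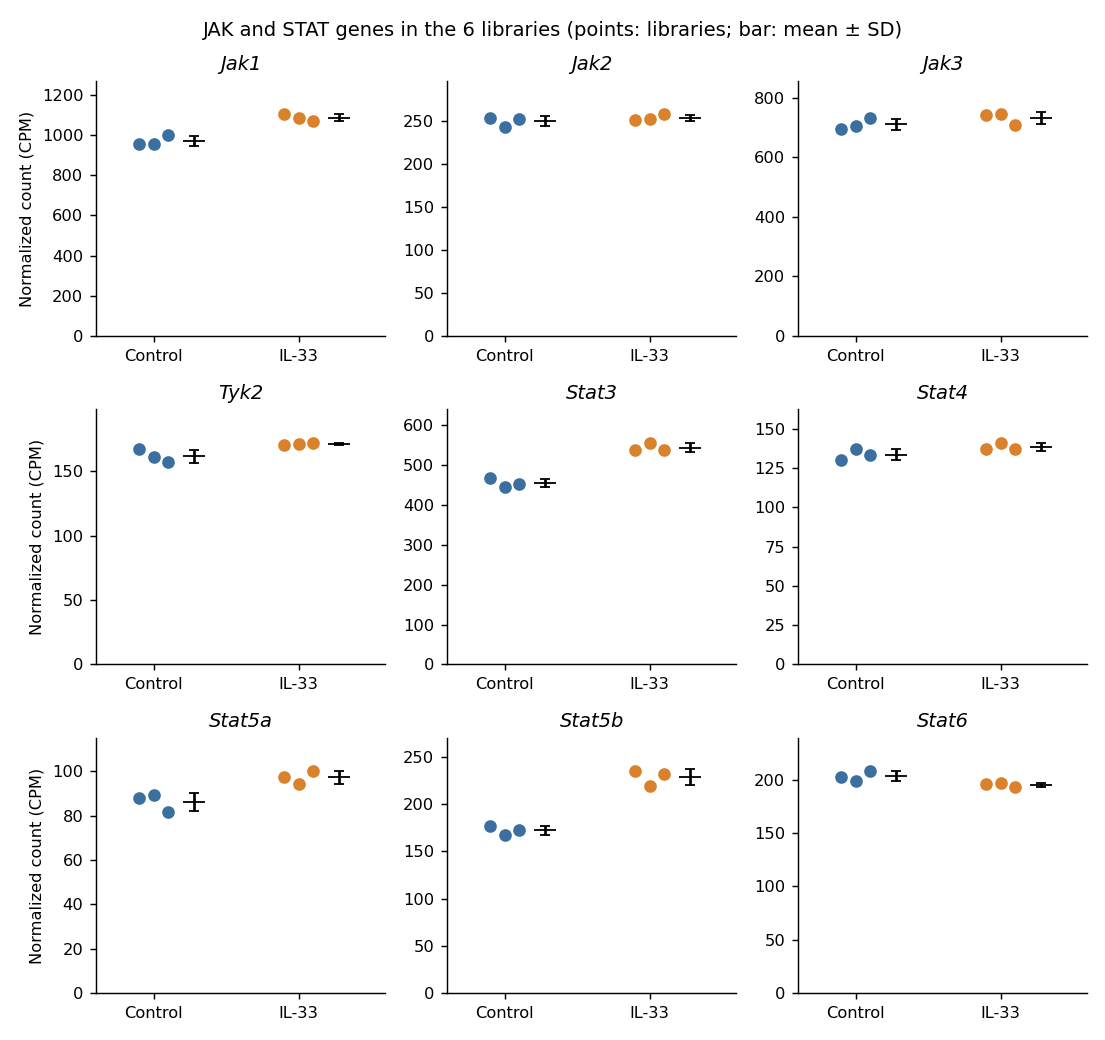
Normalized counts (CPM, vertical axes from 0) of the 4 JAK and 5 STAT genes in the 3 Control and 3 IL-33 libraries. Points are libraries and bars are mean ± SD. The IL-33 libraries of Stat5b sit between 219 and 235 CPM, above the Control libraries at 167 to 177 CPM, whereas the points of Jak2 overlap at 243 to 258 CPM.

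Libraries held 20256342 to 22336050 counts, so that a limit of 3 counts corresponded to 0.134 to 0.148 CPM, far below every member. The 12 T cell identity genes were all in the table, with a summed level of 2925 to 3089 CPM over the 6 libraries. Cd4 was near absent (0.934 ± 0.183 CPM in Control and 0.373 ± 0.143 CPM with IL-33, SD, n = 3). Cd8a, by contrast, was at 545 ± 13.6 CPM in Control and 400 ± 9.15 CPM with IL-33 in these cells sorted as CD8-, while Cd8b1 rose from 9.68 ± 1.65 to 16.3 ± 2.07 CPM (adjusted p = 6.2e-08, edgeR). Summed NK cell markers ran from 434 to 438 CPM in Control and from 393 to 418 CPM with IL-33 (5 of 5 in the table, Ncr1 at no more than 20 counts in any library). Summed dendritic and myeloid cell markers (12 of 14 in the table, Cd209a and Clec9a not in it) ran from 78.0 to 81.0 CPM in Control. With IL-33 this sum ran from 49.1 to 56.4 CPM. Itgax, the largest part of this sum, was at 54.6 ± 2.07 CPM in Control and 26.0 ± 1.59 CPM with IL-33. Itgam of the same list rose from 2.61 ± 0.0742 to 4.83 ± 0.844 CPM (adjusted p = 1.3e-04, edgeR). Over the 6 genes of that list that were tested, log2 fold changes had a median of 0.08. Mast cell and basophil markers (8 of 9 in the table, Mcpt4 not in it) summed to 39.0 to 42.6 CPM in Control and 26.8 to 31.4 CPM with IL-33. B cell markers (6 of 8 in the table, Ms4a1 and Pax5 not in it) summed to 16.0 to 17.1 CPM and 16.9 to 21.5 CPM. The part of these shifts in the results below was not tested.

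Among the kinases, Jak1 rose. Jak1 is shared by the receptors of the common gamma chain, gp130 and interferon families (ENSMUSG00000028530, chr4:101152367-101265282, minus strand, GRCm38). It was counted at 957, 954 and 1000 CPM in the Control libraries and at 1104, 1085 and 1071 CPM in the IL-33 libraries. All IL-33 libraries were above all Control libraries. The means were 971 ± 25.7 and 1086 ± 16.5 CPM (SD, n = 3), a log2 fold change of 0.16 (SE 0.024, 95% interval 0.11 to 0.21, adjusted p = 2.0e-08 by edgeR's quasi-likelihood test).

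The other 3 kinases did not pass the threshold. Jak3, which binds only the common gamma chain (ENSMUSG00000031805, chr8:71676296-71690575, plus strand), was at 696, 704 and 731 CPM in Control and 743, 744 and 709 CPM with IL-33. The groups overlapped, and the log2 fold change was 0.04 (95% interval -0.01 to 0.09, adjusted p = 0.236, edgeR). Jak2, the kinase of the common beta chain and of the second chain of the IFN-γ receptor (ENSMUSG00000024789, chr19:29251828-29313080, plus strand), was at 254, 243 and 252 CPM in Control and 251, 252 and 258 CPM with IL-33. Its groups overlapped as well, with a log2 fold change of 0.02 (95% interval -0.04 to 0.09, adjusted p = 0.663, edgeR). Tyk2 serves the IL-12 and type I interferon receptors (ENSMUSG00000032175, chr9:21104068-21131243, minus strand) and was at 167, 161 and 157 CPM in Control and 170, 171 and 172 CPM with IL-33. The 3 IL-33 libraries of Tyk2 were all above the Control libraries, but the difference did not pass (log2 fold change 0.08, 95% interval 0.01 to 0.15, adjusted p = 0.0825, edgeR). Without Control replicate 1, Tyk2 passed, at a log2 fold change of 0.11 and an adjusted p of 0.0360 (edgeR). It was the only member whose call differed in any of the 12 other fits that test for a difference from 0.

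Of the 9 members, Stat5b had the largest change. Stat5a and Stat5b carry the signals of IL-2, IL-7 and IL-15 and are encoded by neighbouring genes on chromosome 11. Stat5b (ENSMUSG00000020919, chr11:100780731-100850724, minus strand) was at 177, 167 and 173 CPM in Control and 235, 219 and 232 CPM with IL-33. The groups were well separated, with means of 172 ± 5.40 and 229 ± 8.40 CPM (SD, n = 3). The log2 fold change was 0.41 (SE 0.035, 95% interval 0.34 to 0.48, adjusted p = 1.4e-18, edgeR), which placed Stat5b at rank 132 of the 14671 genes by adjusted p. Stat5a (ENSMUSG00000004043, chr11:100859351-100885169, plus strand) was lower in level, at 87.8, 89.2 and 81.5 CPM in Control and 97.5, 94.1 and 100 CPM with IL-33. Again no IL-33 library was as low as a Control library. The log2 fold change of Stat5a was 0.18 (SE 0.043, 95% interval 0.09 to 0.26, adjusted p = 5.4e-04, edgeR).

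Stat3, which is activated by IL-6, IL-10 and IL-21, ranked next to Stat5b (ENSMUSG00000004040, chr11:100885098-100939540, minus strand). Its Control libraries were at 467, 446 and 452 CPM and its IL-33 libraries at 538, 556 and 537 CPM. The groups did not overlap, and the log2 fold change was 0.26 (SE 0.028, 95% interval 0.20 to 0.31, adjusted p = 1.7e-13, edgeR). Stat4, the factor downstream of IL-12 (ENSMUSG00000062939, chr1:51987148-52107189, plus strand), was at 130, 137 and 133 CPM in Control and 137, 141 and 137 CPM with IL-33. The groups overlapped, and the log2 fold change was 0.05 (95% interval -0.02 to 0.13, adjusted p = 0.311, edgeR). Stat6 transmits IL-4 and IL-13 signals (ENSMUSG00000002147, chr10:127642986-127660957, plus strand) and was at 203, 199 and 208 CPM in Control and 196, 197 and 193 CPM with IL-33. All 3 IL-33 libraries were below the Control libraries without passing the threshold (log2 fold change -0.06, 95% interval -0.13 to 0.01, adjusted p = 0.214, edgeR). In all, the groups did not overlap for 5 members that were higher with IL-33 and 1 that was lower, beside 38.9% of all genes tested in either direction.

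Stat2, a STAT factor of type I interferon signalling that was on the pathway lists, went the other way. It was named after its values were seen and fell short of the fold change threshold. It was at 151, 158 and 157 CPM in Control and 127, 120 and 131 CPM with IL-33. Every IL-33 library lay below every Control library, and the log2 fold change was -0.30 (SE 0.038, adjusted p = 1.2e-10 by edgeR's quasi-likelihood test).

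**Figure D2:**
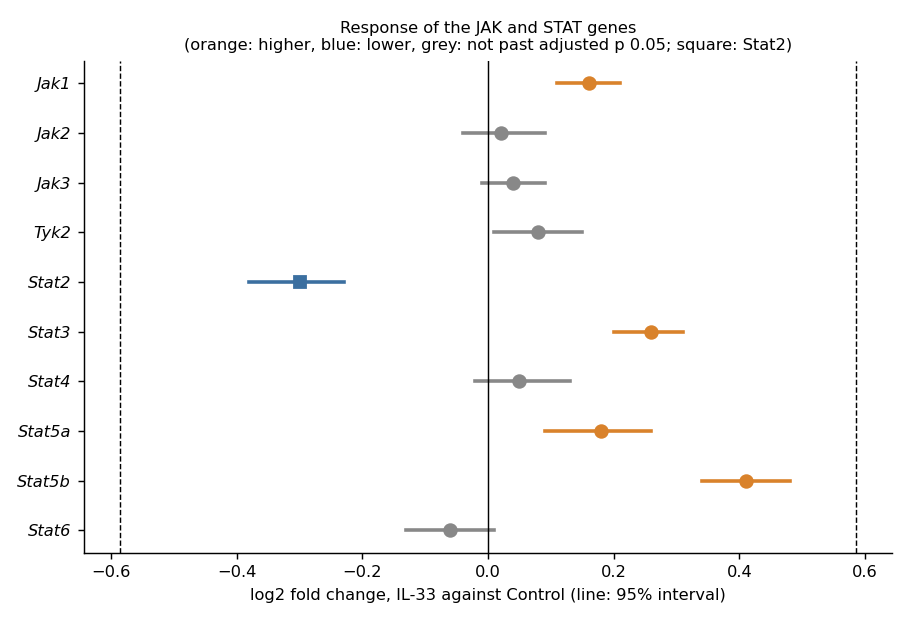
Log2 fold change of IL-33 against Control (horizontal axis) for the 9 members and Stat2, with its 95% interval as a line. Dashed lines mark a fold change of 1.5 in either direction. Stat5b (0.41), Stat3 (0.26), Stat5a (0.18) and Jak1 (0.16) lie right of 0, Stat2 (-0.30, square) lies left of it, and no interval reaches a dashed line.

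The 2 Stat5 genes are similar enough in sequence that reads could be exchanged between them. Their coding sequences, taken from GENCODE M21, were identical at 90.8% of aligned bases (2080 of 2291), while Jak1 and Jak2, for example, shared 61.1%. The longest stretch with no difference ran for 324 bases, and no read placed wholly inside it can be given to 1 gene. It ended at coding base 894, counted from the start codon, and was bounded in Stat5b by the substitutions C570A and C895T (Stat5a base first). Its beginning is printed from Stat5a with the bases before it, and the capital marks the base that differs in Stat5b:

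Stat5a coding bases 541 to 720: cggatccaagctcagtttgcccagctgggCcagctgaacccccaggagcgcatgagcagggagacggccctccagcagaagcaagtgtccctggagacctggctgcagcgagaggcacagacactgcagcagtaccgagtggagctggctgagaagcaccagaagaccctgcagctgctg

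Elsewhere the genes differ more. The window of 90 coding bases with the most differences, coding bases 88 to 177 in both, had 28, which are in capitals:

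Stat5a coding bases 88 to 177: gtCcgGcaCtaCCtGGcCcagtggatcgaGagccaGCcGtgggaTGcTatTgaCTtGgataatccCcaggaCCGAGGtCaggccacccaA

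Stat5b coding bases 88 to 177: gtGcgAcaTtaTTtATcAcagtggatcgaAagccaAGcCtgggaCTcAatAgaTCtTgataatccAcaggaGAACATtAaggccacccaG

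Of all windows of 50 bases in the annotated transcripts, 8.52% of those of Stat5a and 11% of those of Stat5b also occurred in another gene. For windows of 100 bases these shares were 3.44% and 4.79%, and for windows of 150 bases they were 2.21% and 3.16%. How the counting treated such reads is not given in the sources used here, so the Stat5a and Stat5b values are uncertain to that extent. The ratio of Stat5b to Stat5a counts was 2.02, 1.87 and 2.12 in Control and 2.41, 2.33 and 2.31 with IL-33. Each IL-33 ratio was above each Control ratio (2.00 ± 0.126 and 2.35 ± 0.0538, SD, n = 3; exact two-sided permutation p = 0.10, the smallest that 3 against 3 libraries allow). This ratio, like those of Jak1 to Jak3 and Stat3 to Stat6 below, was chosen after the values were seen.

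Other members also share annotated bases with neighbours. Stat5a and Stat3 overlap at their ends by 72 exon bases on opposite strands, Jak3 shares 404 exon bases with Insl3 on the same strand, and Tyk2 shares 554 with the antisense gene 1700084C06Rik. Stat4 shares 1033 exon bases with Gm28177, and 21.7% of its windows of 50 bases occurred in another gene, more than in any other member. Stat6 and Nab2 share 40 exon bases and Jak1 and Raver2 share 4, on opposite strands. Whether the counting used strand is not given, and these reads cannot be assigned from the table.

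Stat5b, Stat5a and Stat3 lie side by side within 158.81 kb of chromosome 11. Stat5b and Stat5a are transcribed away from each other from start sites 8.627 kb apart, and Stat5a and Stat3 run towards each other. All 3 rose with IL-33. Within 250 kb on each side, a window chosen after the values were seen, the table held 26 other genes, and 19 of them were tested. Of these, 2 were called higher and 4 lower, beside 13.6% and 13.9% of all genes tested. Their log2 fold changes had a median of -0.08 and a range of -1.25 to 0.46. The genes called higher were Nkiras2 (log2 fold change 0.28, SE 0.063) and Ghdc (0.28, SE 0.109). Kcnh4 and Psmc3ip fell past both thresholds, with log2 fold changes of -1.25 (SE 0.309) and -0.70 (SE 0.154). Kcnh4 was low, at 15 to 48 counts in a library.

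**Figure D3:**
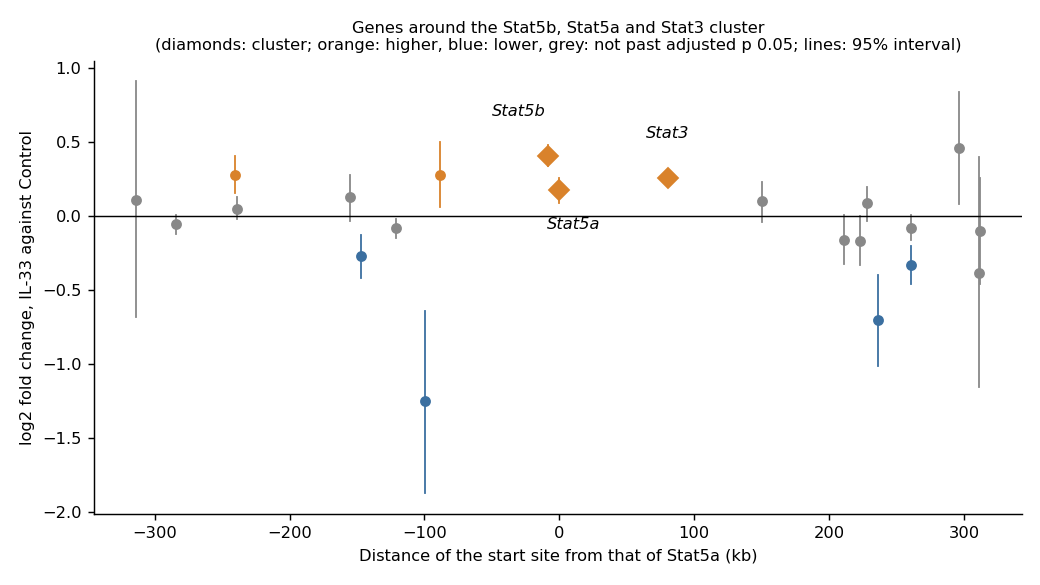
Log2 fold change of IL-33 against Control (vertical axis) for tested genes by the distance of their start site from that of Stat5a (horizontal axis, kb). Lines are 95% intervals. The diamonds of Stat5b (0.41), Stat5a (0.18) and Stat3 (0.26) lie above 0 while the 19 other genes have a median of -0.08.

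The sequences just before the start sites of the 4 members that rose are shown because these genes moved together. They are from RefSeq (GRCm38.p6), 5′ to 3′ on the strand of the gene, and cover the 250 bases before the start site, or the part of them outside annotated exons. For Stat5a, the second of its RefSeq start sites is given, and for Stat5b the first. The first Stat5a site, not printed, held no match to the motif marked below. Capitals mark the only match to the κB motif, the binding motif of NF-κB, searched on both strands:

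Stat5b, chr11:100850725-100850831, minus strand: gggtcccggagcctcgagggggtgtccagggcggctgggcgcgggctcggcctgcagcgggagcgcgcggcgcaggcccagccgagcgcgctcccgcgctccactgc

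Stat5a, chr11:100860234-100860344, plus strand: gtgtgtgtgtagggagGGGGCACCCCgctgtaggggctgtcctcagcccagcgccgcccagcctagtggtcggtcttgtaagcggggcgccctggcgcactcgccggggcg

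Stat3, chr11:100939541-100939790, minus strand: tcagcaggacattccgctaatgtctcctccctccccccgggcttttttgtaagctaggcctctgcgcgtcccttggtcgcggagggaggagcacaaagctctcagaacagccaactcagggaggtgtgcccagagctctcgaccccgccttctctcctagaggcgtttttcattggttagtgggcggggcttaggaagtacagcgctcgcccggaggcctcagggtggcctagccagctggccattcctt

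Jak1, chr4:101265283-101265473, minus strand: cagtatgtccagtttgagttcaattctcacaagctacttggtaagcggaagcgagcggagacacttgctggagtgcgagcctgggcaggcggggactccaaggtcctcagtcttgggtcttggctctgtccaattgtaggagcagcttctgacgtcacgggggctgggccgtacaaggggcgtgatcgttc

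Within the full 250 bases, the Stat5a window was the only one of the 12 member start sites with a κB match, which 7.28% of all 32536 RefSeq promoters held. The STAT binding motif TTCNNNGAA, which reads the same on both strands, was in none of them and in 7.04% of all promoters. CpG dinucleotides numbered 40 at the first Stat5b start site, 21 at the second Stat5a site, 19 at Jak1 and 13 at Stat3. The first Stat5a site and the second Stat5b site held 5 each. Among the members that did not pass, the count ran from 1 at the first Stat4 site to 37 at Jak2, and the median of all promoters was 6. High and low counts were thus found on either side of the threshold. A match describes the letters of this window only.

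Levels were compared between genes on a per-length scale, as TPM (counts divided by length and scaled to a fixed total) computed from the counts and the annotated exon length. In Control, Jak1 (409 ± 7.53 TPM, SD, n = 3) and Jak3 (404 ± 5.77 TPM) stood highest, and their ranges over libraries overlapped. Jak2 (151 ± 4.68), Stat3 (145 ± 5.17) and Stat6 (141 ± 2.81 TPM) followed, where Jak2 overlapped with Stat3 and Stat3 with Stat6. Stat4 (105 ± 2.35), Stat5b (94.7 ± 3.92), Tyk2 (71.7 ± 3.38) and Stat5a (36.8 ± 2.12 TPM) came after in that order without overlap between neighbours. The pair of kinases that serves the IL-2 receptor was thus at the top of the list, and Stat5a at the bottom.

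With IL-33, no neighbours in the order overlapped. Jak1 reached 452 ± 9.72 TPM and stood above Jak3 at 411 ± 14.2 TPM. Stat3, at 172 ± 4.27 TPM, stood above Jak2 at 152 ± 1.21 TPM, and Stat6 followed at 133 ± 2.36 TPM. Stat5b, at 124 ± 4.33 TPM, exchanged places with Stat4, at 108 ± 2.41 TPM, ahead of Tyk2 (74.9 ± 0.175) and Stat5a (41.0 ± 1.08 TPM). The order depends on the length used. With the longest transcript of each gene in place of all exons, an alternative chosen after the data were seen, 5 of the 9 genes kept their place in the order of mean levels over the 6 libraries, and Stat4 stayed above Stat5b with IL-33. Summed over the genes, the 4 JAK levels went from 1036 ± 14.7 to 1090 ± 22.1 TPM (5.17% more) and the 5 STAT levels from 523 ± 10.6 to 578 ± 5.54 TPM (10.6% more).

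The same levels were also read as a mixture of transcripts within each family. As a share of the summed STAT TPM, Stat5b went from 18.5, 17.7 and 18.2% in Control to 22.1, 20.6 and 21.9% with IL-33, a difference of 3.39 percentage points. Stat3 gained 1.86 points. Stat6 was at 26.6, 26.6 and 27.5% in Control and 23.2, 23.2 and 22.9% with IL-33, a difference of -3.84 points, and Stat4 differed by -1.47 points. The groups of Stat5a overlapped in this sum of 5 genes (7.04 ± 0.355% and 7.10 ± 0.243%). Among the kinases, the share of Jak1 went from 39.5 ± 0.280% to 41.5 ± 0.244% and that of Jak3 from 39.0 ± 0.409% to 37.7 ± 0.569%. Jak2 differed by -0.68 points, and Tyk2 by -0.05 points with overlapping groups. For 7 of the 9 genes the groups did not overlap, with an exact two-sided permutation p of 0.10 each, the smallest possible here. The groups of Jak2 nearly touched, with its lowest Control share and its highest IL-33 share both at 14.4% after rounding. Shares within a family add up to a fixed total, so that a rise in 1 gene lowers the others. Jak2, Jak3 and Stat4 are among the 7, although their own CPM overlapped between the groups. The shares are thus no separate support for the changes in level.

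**Figure D4:**
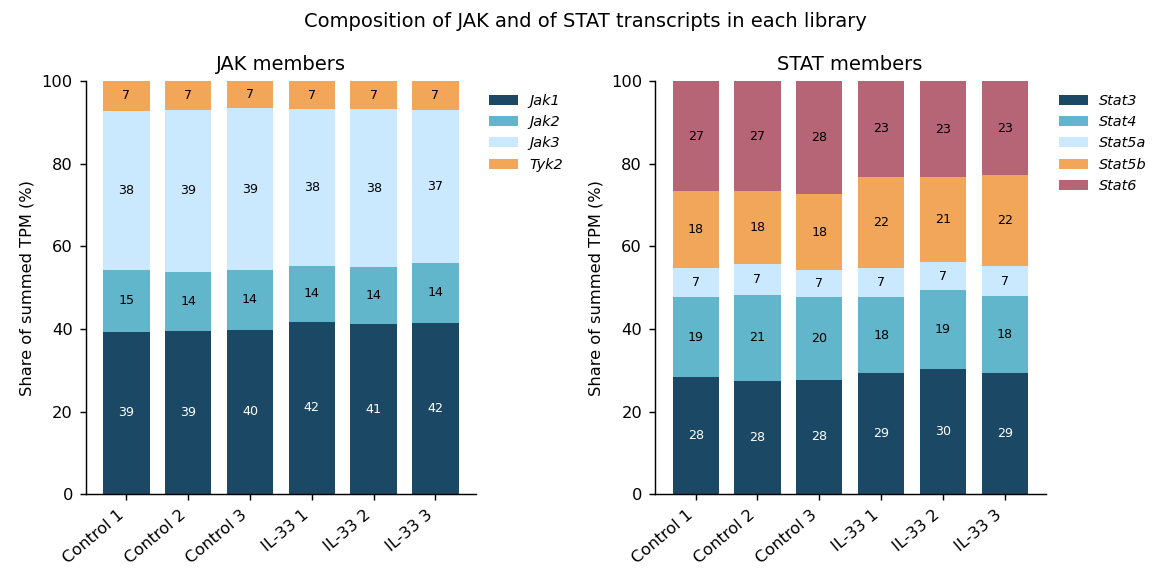
Share of each gene in the summed TPM of the 4 JAK members (left) and the 5 STAT members (right), in percent, for each library. Stacked segments add up to the whole family. The Stat5b segment is 18.1% on average in Control and 21.5% with IL-33, and the Stat6 segment 26.9% and 23.1%.

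Whether the groups of Stat4 overlap in share depends on which STAT genes enter the sum. With Stat2 added, an alternative chosen after the data were seen, the groups of Stat4 overlapped (-0.66 points) and Stat5a differed by 0.28 points, still with overlapping groups. The groups of Stat5b (3.65 points), Stat3 (2.59 points) and Stat6 (-2.57 points) did not overlap in that sum. The ratio of Stat3 to Stat6 counts was 2.24 ± 0.0638 in Control and 2.78 ± 0.0428 with IL-33, and that of Jak1 to Jak3 was 1.37 ± 0.0105 and 1.49 ± 0.0266 (SD, n = 3), with an exact permutation p of 0.10 for both.

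The genes most like Stat5b across the 6 libraries were Flt4, Gphn and Tigd2, with Pearson correlations of log2 CPM of 0.9989, 0.9988 and 0.9970. They were taken from 12959 genes with a mean of at least 1 CPM, 466 of which had a correlation above 0.95, and the points share the division into 2 groups. Flt4, a receptor of vascular endothelial growth factors, was at 5.27 ± 0.593 CPM in Control and 11.7 ± 1.24 CPM with IL-33. Gphn, which encodes the scaffold protein gephyrin, was at 19.2 ± 0.624 and 25.7 ± 0.864 CPM, and Tigd2, a gene derived from a transposon, at 32.0 ± 0.421 and 38.8 ± 0.930 CPM (SD, n = 3).

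The rest of the pathway was read from 8 lists with 119 genes, of which 113 were in the table and 95 were tested. Of these, 21 were called higher and 24 lower, beside 13.6% and 13.9% of all genes tested. Among genes with a mean of at least 75 CPM, these shares were 26.7% and 22.7%. Past both thresholds were 5 higher and 6 lower, beside 2.47% and 2.39% of all genes tested. The median log2 fold change of the pathway genes was -0.05, beside -6.3e-04 for all genes tested. More ligands were called higher than lower, and more receptors and inhibitors lower than higher, as the counts below show. The lists are short, and their counts were not tested against those shares.

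Of 15 tested ligand genes, 6 were called higher and 0 lower, with a median of 0.41. This median includes Il21, at 4, 13 and 8 counts in Control and 15, 17 and 21 with IL-33. It also includes Il27, at 5, 10 and 9 counts in Control and 28, 6 and 11 with IL-33 (log2 fold change 0.87). Il21 passed the filter of low counts through its IL-33 libraries, and Il27 did so in part, which raises the median. Neither gene was called. Il23a, also at low counts, had a log2 fold change of -0.37. Ifng, the type 1 cytokine that signals through Jak1 and Jak2, was at 38.4, 43.6 and 46.3 CPM in Control and 85.3, 83.9 and 80.4 CPM with IL-33. The groups did not overlap (log2 fold change 0.96, SE 0.052, adjusted p = 4.1e-29, edgeR). The type 2 cytokines Il13 (0.99, SE 0.042) and Il5 (1.35, SE 0.092) and the gp130 ligand Il6 (1.05, SE 0.137) also rose past both thresholds. Il13 signals through Stat6, whose own level did not pass. Il6 signals through Stat3, which rose. Of the receptor genes on the lists, Il6ra had 1 to 3 counts in a library and Il13ra1 0 to 7, too few for testing. Whether these ligands acted on the cells was not tested. Il5 has an antisense neighbour that shares 417 of its 1537 exon bases, and Ifng shares 336 of 1295 with Gm49751.

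Among the receptors of the common gamma chain family, 2 of the 9 tested genes were called higher and 4 lower. The IL-2 receptor chains diverged. Il2ra, the high-affinity chain, was at 956, 945 and 953 CPM in Control and 1191, 1199 and 1192 CPM with IL-33. Every IL-33 library was higher (log2 fold change 0.33, SE 0.023, adjusted p = 6.0e-23, edgeR). Il2rb, the signalling chain that binds Jak1, rose slightly (0.06, SE 0.019, adjusted p = 0.00861), and Il2rg, the common gamma chain that binds Jak3, fell by 0.13 on the log2 scale (SE 0.040, adjusted p = 0.00720, edgeR). Il2rg shares 728 of its 2387 exon bases with Gm20489 on the same strand, so its count is uncertain. These 3 chains fell short of the fold change threshold and were named after their values were seen. Il7r, the IL-7 receptor chain, was at 93.6, 99.7 and 94.5 CPM in Control and 61.4, 56.8 and 63.4 CPM with IL-33. It fell by 0.66 on the log2 scale (SE 0.045, adjusted p = 1.1e-24, edgeR). Il9r, the IL-9 receptor chain, fell as well, from 6.27 ± 0.171 to 4.07 ± 0.798 CPM (log2 fold change -0.62, SE 0.166, adjusted p = 0.00198, edgeR). The median of the list was -0.10.

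The receptors of the gp130, IL-12, IL-10 and interferon families had 2 genes called higher and 4 lower of 13 tested, with a median of -0.08. Ifngr2, the IFN-γ receptor chain that binds Jak2, was at 8.34, 8.27 and 8.30 CPM in Control and 4.42, 3.96 and 6.30 CPM with IL-33. It was lower in each IL-33 library (log2 fold change -0.76, SE 0.151, adjusted p = 2.4e-05, edgeR). Of 4 tested common beta chain and homodimeric receptors, 0 were higher and 2 lower, with a median of -0.24. Csf2rb2, the IL-3 receptor beta chain, fell from 3.15 ± 0.558 to 1.97 ± 0.446 CPM (log2 fold change -0.67, SE 0.234, adjusted p = 0.0227, edgeR). Its call was lost in DESeq2 and without Control replicate 1 or 2 or IL-33 replicate 1 or 2, with adjusted p-values of up to 0.12, and its reads may be shared with its close paralog Csf2rb.

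Of the 19 inhibitors, all tested, 1 was called higher and 5 lower, with a median of -0.07. Socs1, which blocks Janus kinases directly, was at 47.5, 48.1 and 47.7 CPM in Control and 25.2, 23.7 and 29.5 CPM with IL-33. The groups were far apart (log2 fold change -0.87, SE 0.067, adjusted p = 1.0e-20, edgeR). Sh2b3, the adaptor LNK that restrains Jak2, was at 35.4, 33.7 and 33.5 CPM in Control and 22.9, 22.8 and 20.7 CPM with IL-33. It fell by 0.63 on the log2 scale (SE 0.073, adjusted p = 4.1e-12, edgeR). Cish and Socs3, named after their values were seen, are feedback inhibitors that STAT factors induce. Cish fell by 0.20 on the log2 scale (SE 0.036, adjusted p = 5.7e-06), while Socs3 was at 33.4 ± 1.90 and 33.8 ± 4.56 CPM (adjusted p = 0.860, edgeR). Socs2, also named after its values were seen, was the inhibitor called higher. It rose by 0.33 on the log2 scale (SE 0.123, adjusted p = 0.0340, edgeR), with overlapping groups.

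Of the 25 target genes, 10 were called higher and 6 lower, and the median was -0.02. Fos, an early response gene, was the only one past both thresholds, at 5.35 ± 0.618 CPM in Control and 8.98 ± 0.940 CPM with IL-33 (SD, n = 3). Its lowest IL-33 library, at 8.23 CPM, was above its highest Control library, at 6.03 CPM (log2 fold change 0.75, SE 0.143, adjusted p = 1.1e-05, edgeR). Smaller changes, named after their values were seen, went both ways. Prdm1, which encodes the repressor BLIMP-1, rose by 0.55 (SE 0.046), and Bcl6, its antagonist, fell by 0.30 (SE 0.055) on the log2 scale. Of the 8 adaptors and nuclear partners, 0 were called higher and 1 lower.

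**Figure D5:**
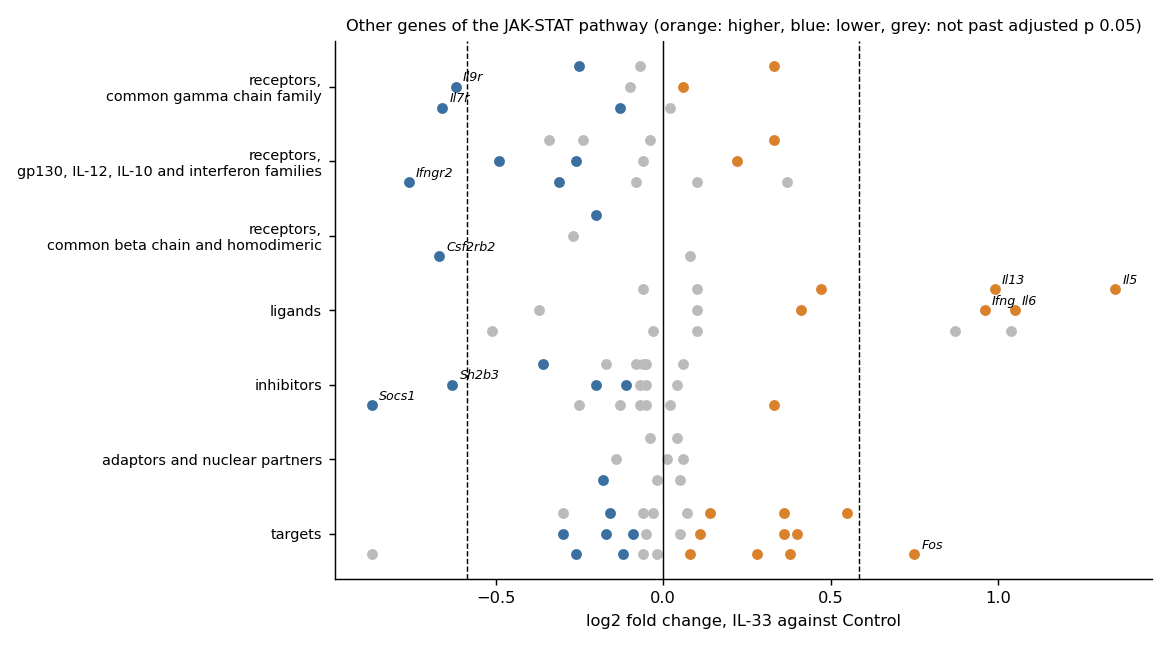
Log2 fold change of IL-33 against Control (horizontal axis) for the tested receptors, ligands, inhibitors, adaptors and targets of the pathway lists, 1 band a list, with vertical offsets only for legibility. Genes past both thresholds (dashed lines at a fold change of 1.5) are named, from Socs1 at -0.87 to Il5 at 1.35. All 4 named ligands lie to the right, and all named receptors and inhibitors lie to the left.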

How the data were processed

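RNA from 3 Control and 3 IL-33 samples was sequenced, and samples were grouped by their titles. The labels name the TruSeq kit and the study's methods name NEBNext. Raw counts for each gene and library were deposited by the authors, with 1 column of signal, named as DESeq2 names the mean of normalized counts, which was not used for tests. The submitters' processing notes name Bowtie 0.12.2 and the mm8 build, without their roles. For the counting program, the annotation and the use of strand, nothing is stated (not given in the sources used here). Of the 26128 Ensembl identifiers, 26086 matched GENCODE M21 (GRCm38), the source of positions and lengths, by identifier only.

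Low counts were removed by filterByExpr of edgeR (minimum count 10, minimum total 15), and the remaining genes were scaled by TMM and compared by the robust quasi-likelihood test (two-sided, no covariates) with Benjamini-Hochberg adjustment over 14671 genes. The thresholds (0.05 and 0.585) are those of the study. CPM are scaled by TMM. Software was edgeR 4.0.16, DESeq2 1.42.0 and limma 3.58.1 in R 4.3.3. The script was tested on simulated data. Shares within a family were compared by exact permutation, without the adjustment over the 9 genes that had been planned. Limits of detection cover counting error only.

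The members, the lists and the markers were chosen with earlier results of these data known. The genes named are the 9 members, the list genes past both thresholds and the 3 genes most correlated with the member of smallest adjusted p, besides those marked as chosen after their values were seen and the checks of cell type. Alternatives were DESeq2, limma-voom, DESeq2 size factors, no filter, a stricter filter (all libraries of either group at 1 CPM or more), a replicate block, each library left out, a test against the fold change threshold and, for shares, counts in place of TPM and, added later, Stat2 in the STAT sum. Some genes of the pathway are not reported here.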

Additional observations from a re-analysis of the deposited data

How the results depend on the processing

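With each library left out in turn, 4 to 5 members were called higher and 0 lower, 0 passed both thresholds, and 18 to 25 pathway genes were called higher, 22 to 24 lower and 9 to 15 past both. Tested against a fold change of 1.5 instead of 0, 0 members and 4 pathway genes were called higher and 1 lower, 5 in all, which the stricter null hypothesis brings about. With the longest transcript, 5 of 9 genes kept their place in the order of levels. The differences in share that were within the spread changed sign. With libraries left out, that of Tyk2 ran from -0.23 to 0.10 percentage points (0.10 without Control replicate 1 and 0.01 without IL-33 replicate 1), and that of Stat5a from -0.13 to 0.21 (-0.13 without Control replicate 3 and -0.06 without IL-33 replicate 3). With counts, that of Stat5a was -0.12. The cause was not tested.

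The replicate numbers did not pair the libraries, with correlations of 0.0116, 0.0032 and 0.0107 between same-numbered libraries, although each library correlated best with its own number. A fit with the replicate block called 3798 genes in place of 4036, with 4 members and 16 pathway genes higher and 25 pathway genes lower. DESeq2 called 3031 genes and limma-voom 4029. The block changed no call of a member. The lowest count of any member in a library was 1786, for Stat5a, and with 3 libraries a group no exact test could go below a p of 0.10.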
